A study of Zea mays with 15 samples.

Results

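ARF4 (GRMZM2G034840) and ARF29 (GRMZM2G086949) are a pair of closely related maize AUXIN RESPONSE FACTORS, and their genomic binding was compared here with that of 5 other members of the same clade. The comparison set was ARF16 (GRMZM2G028980), ARF18 (GRMZM2G035405), ARF27 (GRMZM2G160005), ARF34 (GRMZM2G081158) and ARF35 (GRMZM2G317900). The lists were chosen by the name of the protein, with earlier results of these data known. The study had kept only ARFs whose libraries passed its limit on the share of reads in peaks. They are 7 of the 14 ARF peak lists of the series, which has 15 samples with the negative control. The 7 lists held 206905 of its 386300 peaks, and the ARF4 and ARF29 lists held 42828 of these.

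Binding was measured by DAP-seq, in which sheared genomic DNA is incubated in vitro with a tagged transcription factor and the retained fragments are sequenced. All libraries used naked DNA from young ears (1-3cm) of the inbred line B73, so they report which sequences a protein can bind and not where it sits in chromatin. Each ARF was a GST fusion purified from bacteria, and a GST-HALO protein made in wheat germ extract served as the background for peak calling, so ARF and control proteins came from different expression systems. Each ARF had 1 library. Differences between single ARFs therefore have no replicate check, and each interval below is a 95% interval over peaks or sites that covers counting error only.

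ARFs couple the hormone auxin to transcription. They contact DNA through a B3-type domain that recognises a short TGTC core, and a dimerisation surface lets a pair of ARFs bind neighbouring copies of it. Members of clade A, to which all 7 proteins belong in the study, are generally regarded as activators that Aux/IAA proteins hold inactive while auxin is low. The study placed the 7 proteins in 3 sub-clades, with ARF4 and ARF29 in one of them. It asked whether relatives within a clade choose different binding sites.

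The ARF4 list held 28671 peaks and the ARF29 list held 14157. Among the other 5 lists, ARF34 had 74603 peaks (mapped reads cut down to 15 M by the authors), ARF16 had 42091, ARF27 had 30665 (likewise to 20 M) and ARF35 had 9198. ARF18 had the fewest. ARF4 was thus a list of middle length, whereas ARF29 was the third shortest. The number of reads behind the other 5 lists is not known here, and list length can move with it. The lists were therefore also compared at equal size, with as many peaks of highest signal (the read depth assigned to a peak) from each list as the ARF18 list holds. These are called the strong peaks below, and the lists made of them the equal-size lists. This was 26.2% of the ARF4 list, 53.1% of the ARF29 list, 10.1% of the ARF34 list and the whole ARF18 list. The weakest peak kept had a signal of 61.7 reads in ARF4 (61.6 for the next one left out) and 48.8 reads in ARF29 (48.7 for the next).

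Peaks were called shared when their summits lay at most 100 bp apart. Few pairs of peaks lay near this limit. Of the 14157 ARF29 peaks, 60 had their nearest ARF4 summit 91 to 100 bp away and 51 had it in the next 10 bp beyond the limit, against 11737 within 100 bp.

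At equal list size, ARF4 shared more of its strong peaks with ARF29 than with any of the 5 other ARFs. It shared 59.7% of its strong peaks with ARF29 (58.6 to 60.8%). The next partners were ARF16 with 51.0%, ARF27 with 46.1%, ARF34 with 45.2%, ARF35 with 42.8% and ARF18 with 40.03%. On the same ARF4 peaks, ARF29 exceeded ARF16 by 8.68 percentage points (7.46 to 9.91) and ARF18 by 19.7 points (18.5 to 20.9).

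ARF29 was closer to the other 5 lists than ARF4 was, with ARF34 as the exception. It shared 60.5% of its strong peaks with ARF4 (59.4 to 61.6%), 56.6% with ARF35, 54.2% with ARF27, 52.7% with ARF16, 52.2% with ARF18 and 44.7% with ARF34. The gap between ARF4 and its closest competitor, ARF35, was 3.96 points (2.497 to 5.43). Averaged over both directions, ARF18 shared 52.0% of strong peaks with ARF29 but 40.4% with ARF4, and ARF35 shared 56.4% with ARF29 but 43.1% with ARF4. For ARF34 the values were 44.7% and 45.8%, with overlapping intervals, and they also overlapped for ARF16 (53.7 and 52.5%). ARF29, ARF35 and ARF18 were also the 3 shortest lists, and whether depth has a part in their likeness was not tested.

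**Figure D1:**
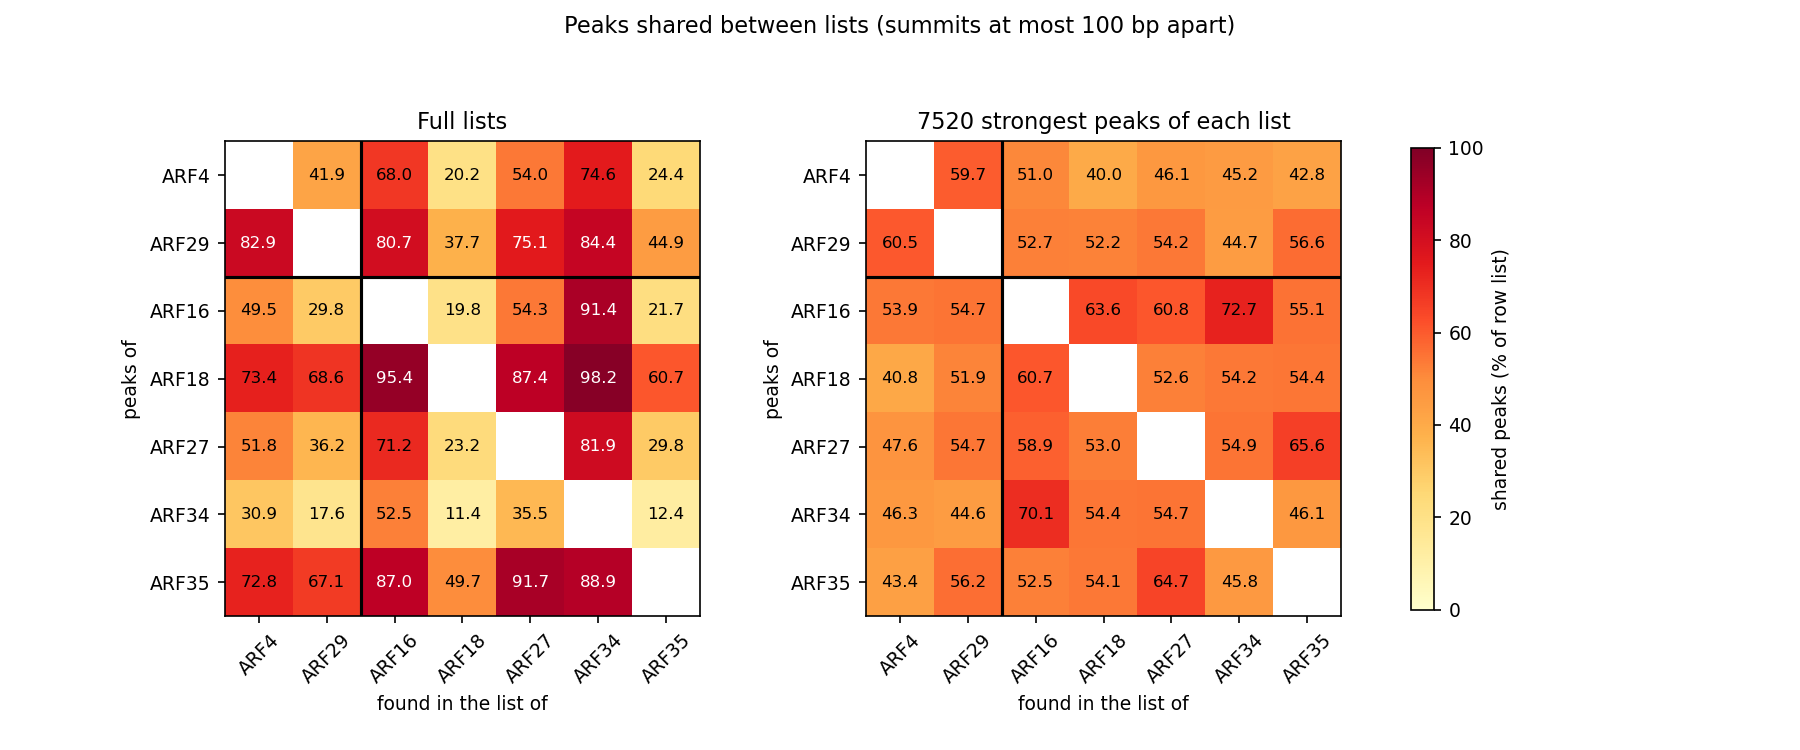
Share of the peaks of each row list that has a peak of the column list with its summit at most 100 bp away, with full lists (left) and with equal-size lists (right). Lines set off ARF4 and ARF29. At equal size the ARF4 and ARF29 cells read 59.7 and 60.5%, and ARF29 lies closer to ARF18 and ARF35 than ARF4 does.

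Among all 21 pairs of lists, ARF4 with ARF29 took the fourth place at equal size. The mean of both directions was 60.1% for ARF4 with ARF29. It was 71.4% for ARF16 with ARF34, 65.2% for ARF27 with ARF35 and 62.1% for ARF16 with ARF18. The 10 pairs of ARF4 or ARF29 with one of the 5 averaged 48.98% (range 40.4 to 56.4%), and the 10 pairs among the 5 averaged 57.5% (range 45.96 to 71.4%). The ranges overlap, so the pair was not separate from the 5 in every comparison. The 5 belong to the remaining sub-clades of the study, so pairs among them include relatives of the same sub-clade. The 10 cross pairs hold only pairs across sub-clades. Here and below, the means of these groups of pairs are therefore not like against like. ARF34 with ARF35, both among the 5, shared less (45.96%) than ARF29 did with ARF16, ARF18, ARF27 or ARF35.

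With full lists the shares followed list length, with ARF4 as a partner of ARF29 as the exception. ARF4 shared 74.6% of its peaks with ARF34, 68.0% with ARF16 and 54.0% with ARF27, all longer lists, but 41.9% with ARF29, 24.4% with ARF35 and 20.2% with ARF18. ARF29 shared 84.4% of its peaks with ARF34 (83.8 to 85.0%), 82.9% with ARF4 (82.3 to 83.5%) 80.7% with ARF16 (80.01 to 81.3%), 75.1% with ARF27, 44.9% with ARF35 and 37.7% with ARF18. ARF4 thus stood above ARF16 and ARF27, which are longer lists. With the smaller list as denominator, ARF4 with ARF29 was at 82.9%, the 10 cross pairs averaged 71.9% and the 10 pairs among the 5 averaged 85.4%. Most of the strong peaks of both proteins were present somewhere in the long lists. Of the strong ARF4 peaks, 93.0% were in the full ARF34 list and 92.0% in the full ARF16 list. For ARF29 these shares were 92.5% and 91.6%.

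With both lists cut to the same number of strongest peaks, ARF4 and ARF29 shared the smallest part at the smallest cut. A peak counts as shared here only if its match also lies within the cut of the other list. The low share therefore does not mean that the strongest peaks lacked a match in the full list of the other protein. The mean share of both directions was 43.6% for the 500 strongest peaks of each list, 46.65% for 1000, 53.3% for 2500, 57.6% for 5000 and 60.1% for the equal-size lists. The 10 cross pairs rose as well, from a mean of 36.9% for 500 peaks to 48.98% for the equal-size lists, so the rise was not particular to ARF4 with ARF29. The mean of the pairs among the 5 went from 53.6 to 57.5%. ARF4 with ARF29 thus moved from place 13 of the 21 pairs at 500 peaks to place 10 at 2500 and place 4 in the equal-size lists.

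The closest partner of ARF29 changed along this scale. Among the 500 strongest peaks ARF29 shared 46.6% with ARF35, 45.2% with ARF16, 44.2% with ARF18 and 43.8% with ARF4. The difference between ARF4 and ARF35 was −2.80 points, with an interval from −8.64 to 3.04 that includes 0. Among the 1000 strongest peaks ARF35 was ahead, with 52.3% against 47.5% for ARF4 and a difference of −4.80 points (−8.97 to −0.625). At 2500 peaks the difference was −1.44 points, with an interval that includes 0 (−4.001 to 1.12). At 5000 peaks ARF4 was ahead by 2.10 points (0.311 to 3.89). ARF4, in contrast, had ARF29 as its first partner at each of the 5 sizes. The interval of its lead over ARF16 included 0 at 500 peaks (2 points, −2.29 to 6.29) and at 1000 peaks (1.80 points, −1.45 to 5.05), but not at 2500 peaks (5.96 points, 3.89 to 8.03).

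**Figure D2:**
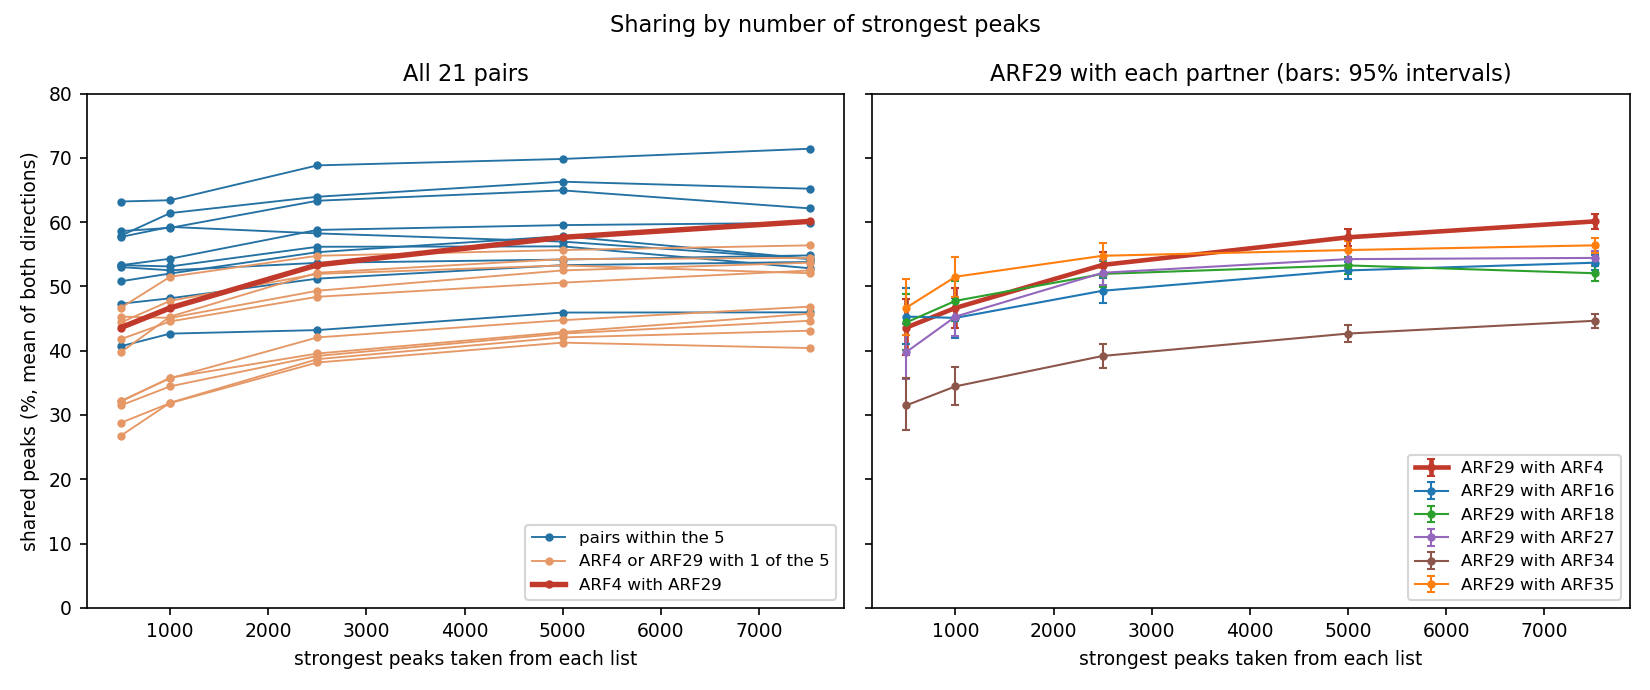
Share of peaks in common (%, mean of both directions) against the number of strongest peaks taken from each list. Left, all 21 pairs by kind; right, ARF29 with each partner, with 95% intervals over peaks. ARF4 with ARF29 rises from 43.6% at 500 peaks to 60.1% in the equal-size lists, and ARF35 lies above ARF4 as the partner of ARF29 up to 2500 peaks.

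To find sites held by ARF4 and ARF29 and by none of the 5, summits of all 7 lists were joined into sites in which each summit is at most 100 bp from the next. The full lists gave 84371 sites, of which 1.75% spanned more than 100 bp. ARF4 and ARF29 both had a peak at 11206 sites. At 609 of these no other list had a peak, which was 0.722% of all sites and 5.43% of the sites of both (5.03 to 5.87%). Weak peaks made up much of this set. Their median signal rank, on a scale from 0 for the weakest to 100 for the strongest peak of a list, was 38.4 in ARF4 and 30.3 in ARF29. Raising the q limit in every list to 10 on the −log10 scale gave 195 such sites. The total of sites at that limit is not given here, so this count has no share beside it.

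At equal list size, sites held by this pair alone were more frequent than for any other pair. ARF4 and ARF29 shared 4353 of 18723 sites, and 641 of these had no strong peak of the 5, which was 3.42% of all sites. This was 14.7% of the sites of both (13.7 to 15.8%). The next pairs were ARF16 with ARF34 at 9.10% (8.34 to 9.93%), ARF27 with ARF35 at 7.96% (7.22 to 8.77%) and ARF29 with ARF35 at 6.21% (5.50 to 6.99%). ARF29 with ARF34 and ARF29 with ARF16 were at 0.786 and 0.749%. A site is lost from this count where any further list of the 7 has a strong peak. No further list is from the sub-clade of ARF4 and ARF29. The 5 share the remaining sub-clades, so pairs among them can lose sites to a close relative. The first place therefore depends on which ARFs are in the set. With full lists the pair was in place 4, behind ARF16 with ARF34 (29.4%), ARF27 with ARF34 (11.7%) and ARF4 with ARF34 (8.87%), all of which include the longest list.

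Nearly all of the 641 sites had weaker peaks of the other proteins. In the full lists, 601 of them (93.8%) held a peak of at least 1 of the 5, with ARF16 at 84.1%, ARF34 at 82.7%, ARF27 at 59.1% and ARF35 at 5.30%. At 40 sites none of the 5 had a peak in the full lists. Over all 4353 sites of ARF4 and ARF29 at equal size, 99.1% held a peak of at least 1 of the 5 in the full lists. There ARF16 was at 97.1%, ARF34 at 96.8% and ARF27 at 90.2%. The 641 sites were thus lower, and choosing sites without a strong peak of the 5 by itself lowers these shares. ARF18 had a peak at none of the 641 sites, but the choice of sites fixed this, since its equal-size list is its whole list. The ARF35 share was largely set in the same way, with 81.8% of its list in the equal-size list. ARF16 and ARF34 were thus mostly present there with peaks of lower rank, and ARF27 was present at a smaller part. For ARF35 and ARF18 these sites cannot show whether weaker peaks are present.

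**Figure D3:**
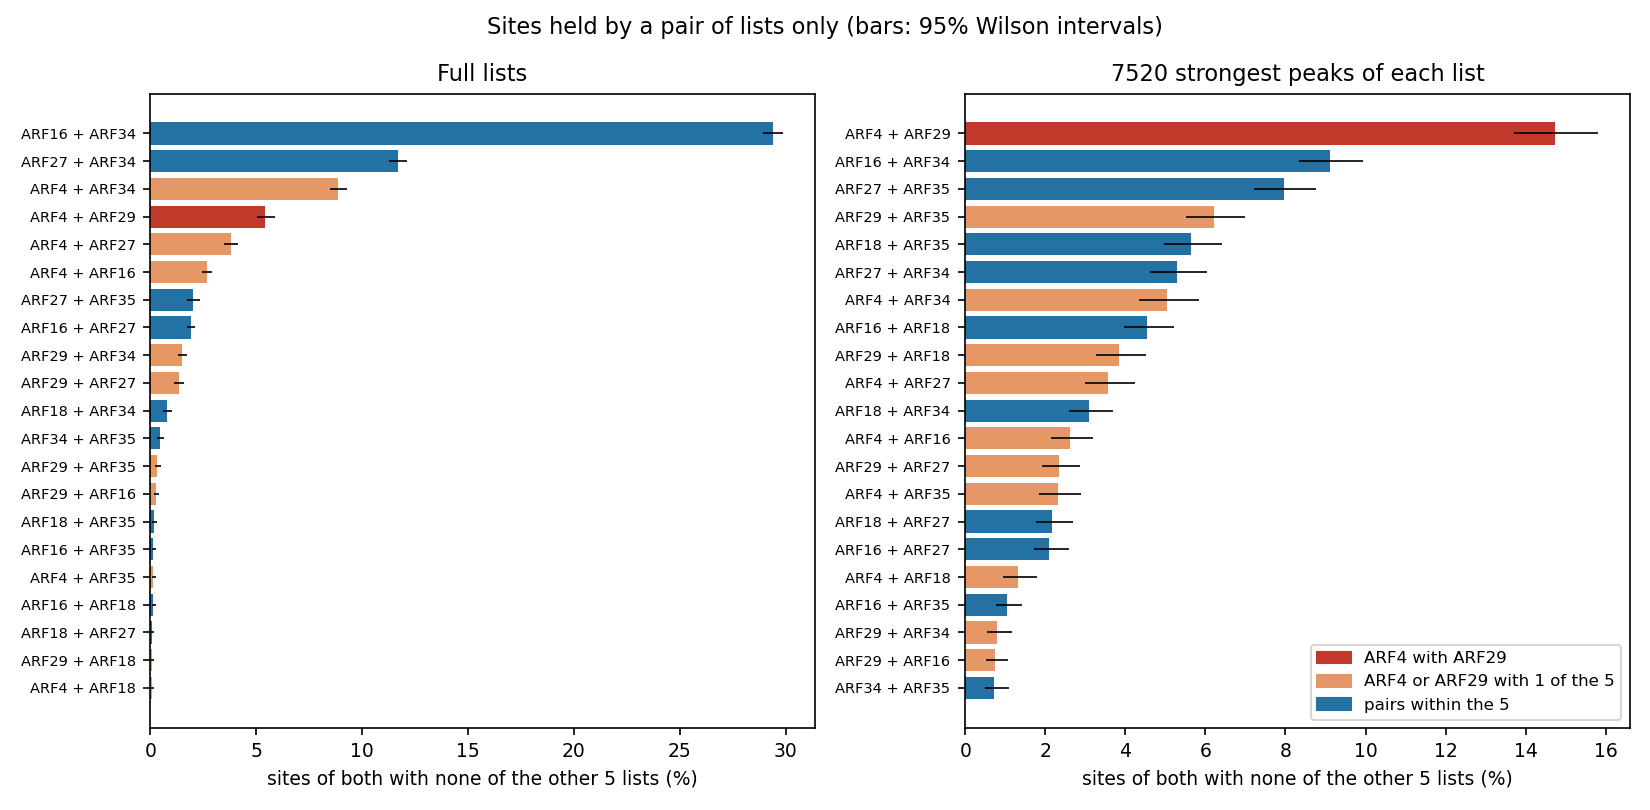
Percent of the sites of a pair of lists at which none of the other 5 lists has a peak, for the 21 pairs, with full lists (left) and with equal-size lists (right); bars are 95% Wilson intervals. ARF4 with ARF29 is at 5.43% and in place 4 on the left, and at 14.7% and in place 1 on the right.

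The strongest of the 40 sites are given by position, in the coordinates of B73 RefGen version 3; genes and sequence at these positions were not analysed here. The site of highest mean rank lay on chromosome 5 with summits from 133170885 to 133170896, where the signal was 192.5 reads in ARF4 (rank 99.1) and 126.8 reads in ARF29 (rank 91.1). The nearest summit of the 5 was 215 bp away, and 3 of the 7 lists outside this clade had a peak there. The second lay on chromosome 3 (69022567 to 69022568), with 107 reads in ARF4 and 116 in ARF29. The others were on chromosome 4, at 220521572 to 220521576 (92.9 reads in ARF4 and 128.2 in ARF29), at 66198105 to 66198109 (166.7 and 90 reads) and at 156800054 to 156800060 (91.8 and 118 reads). Their nearest summit of the 5 was 3350, 5763, 33970 and 380 bp away, so the first and the last site had a peak of the 5 close by but outside the sharing limit. None of these last 4 sites had a peak of the 7 lists outside this clade.

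The converse class, sites of all 5 other proteins without ARF4 and ARF29, was also small. All 5 had a peak at 4208 sites. ARF4 had a peak at 86.5% of these (85.4 to 87.5%), ARF29 at 84.8% (83.7 to 85.9%) and at least one of them at 92.4% (91.5 to 93.1%). The remaining 321 sites were 0.380% of all sites. This count was limited by the shortest lists, since 897 such sites were found without ARF18 and 867 without ARF35 in the set of all. It was 207 at the q limit of 10 named above, which was more than the 195 sites of ARF4 and ARF29 alone. The median signal rank at the 321 sites was 89.6 in ARF34, 80.3 in ARF16, 72.8 in ARF27, 51.1 in ARF18 and 43.5 in ARF35.

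The strongest of these sites lay on chromosome 7 with summits from 5332411 to 5332426. The signals there were 361 reads in ARF16, 121 in ARF18, 322 in ARF27, 288 in ARF34 and 329.8 in ARF35, which gave a mean rank of 96.4, and the nearest ARF4 or ARF29 summit was 1919 bp away. The next was on the same chromosome, from 172922048 to 172922062 (mean rank 95.7, nearest ARF4 or ARF29 summit 2350 bp away). It was followed by 2 sites on chromosome 8, from 151447647 to 151447662 and from 25015417 to 25015521, with mean ranks of 93.1 and 92.9. The last, with a mean rank of 92.5, lay at 1996901 to 1996905 of chromosome 9. The nearest ARF4 or ARF29 summit was 5206 bp away from each of the sites on chromosome 8 and 6415 bp away from the last. No list of the 7 ARFs outside this clade had a peak at any of the 5 sites. At equal list size, 312 of 18723 sites (1.67%) had all 5 and neither ARF4 nor ARF29, and 230 of them (73.7%) held an ARF4 or ARF29 peak in the full lists. ARF4 was present there at 65.1% and ARF29 at 40.1%.

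The presence of ARF4 and ARF29 rose with the number of the 5 proteins at a site. ARF4 had a peak at 9.44% of sites with 1 of the 5, at 28.7% with 2, at 50.2% with 3, at 70.9% with 4 and at 86.5% with all 5. For ARF29 these shares were 2.75, 9.42, 25.4, 56.9 and 84.8%. ARF29 was far below ARF4 at sites of few proteins but within 2 points of it at sites of all 5. With equal list sizes the order was turned. ARF29 had a peak at 60.4% of sites with 4 of the 5 (57.8 to 62.9%), against 53.8% for ARF4 (51.2 to 56.4%), and at 81.4% of sites with all 5 (79.8 to 83.0%), against 70.0% for ARF4 (68.1 to 71.8%).

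**Figure D4:**
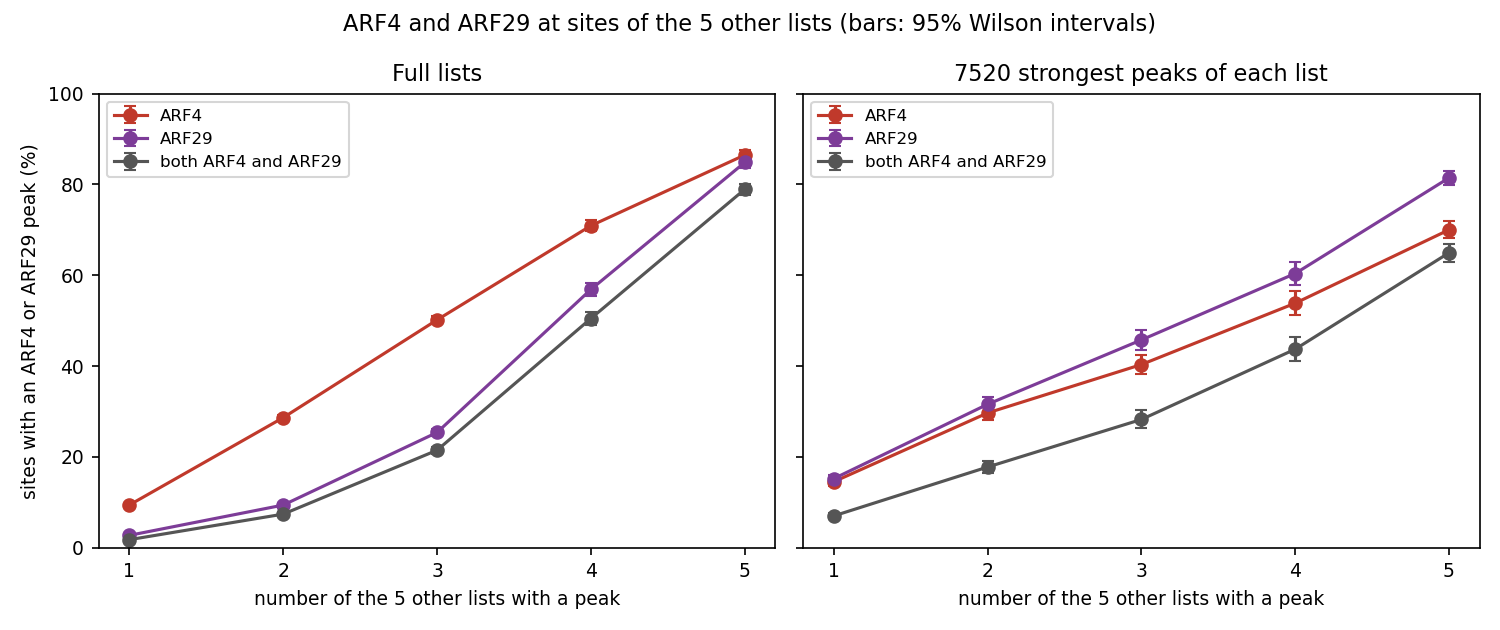
Percent of sites with a peak of ARF4, of ARF29 or of both, by how many of the 5 other lists have a peak at the site, with full lists (left) and with equal-size lists (right); bars are 95% Wilson intervals. At sites of all 5, ARF4 and ARF29 are at 86.5 and 84.8% on the left and at 70.0 and 81.4% on the right.

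Sites of all 7 proteins numbered 3320, or 3.94% of all sites, with full lists and 1500 of 18723 (8.01%) at equal size. The strongest of them over the 7 lists lay on chromosome 7 with summits from 172406240 to 172406254, where ARF4 had 431 reads and ARF29 855. It was followed by chromosome 5 (116422304 to 116422351), with 252 reads in ARF4 and 671 in ARF29, and by chromosome 6 (167839389 to 167839399), with 383.8 and 442 reads. At the first and second of these all 7 lists outside the clade also had a peak, whereas the third held a peak of 2 of them. Signals are not scaled between libraries, so the reads of ARF4 and ARF29 are given side by side only.

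The order of signals was compared at the 3320 sites, where every list has a peak. Spearman's rho between the ranks of ARF4 and ARF29 across these sites was 0.61, and rho between ARF4 and ARF16 was also 0.61. The 10 cross pairs averaged 0.47, with the lowest value at 0.33 (ARF29 with ARF34), and the 10 pairs among the 5 averaged 0.63. ARF4 with ARF29 was in place 9 of the 21 pairs. ARF4 was ordered more like ARF16 (0.61), ARF34 (0.50) and ARF27 (0.49) than like ARF35 (0.39) and ARF18 (0.38). ARF29 was ordered more like ARF35 (0.54), ARF27 (0.50) and ARF18 (0.49) than like ARF16 (0.44) and ARF34 (0.33). At the 1724 sites with exactly 1 peak of each list, rho was 0.62 for ARF4 with ARF29 and 0.58 for ARF4 with ARF16. These values describe sites that share the same DNA and the same control library, and sites are not replicates.

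Peaks that ARF4 and ARF29 had in common differed in strength from those they did not share. The 12005 ARF4 peaks with an ARF29 match had a median signal of 57.8 reads, against 40 reads for the 16666 without. Of the former, 94.8% (94.4 to 95.2%) were also found in at least 1 of the 5 lists, against 73.1% (72.5 to 73.8%) of the latter. The 2420 ARF29 peaks without an ARF4 match had a median signal of 38 reads, against 54.9 reads for the other 11737, and 77.3% of them (75.6 to 78.9%) were in at least 1 of the 5.

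The share of peaks with a match in the full lists rose steeply with signal. In the weakest 20% of the ARF4 list, 25.6% of peaks had an ARF29 match, 67.9% had a match in at least 1 of the 5, and 29.1% had neither. In the strongest 20% these shares were 78.1, 97.9 and 1.26%. In ARF29, 61.4% of the weakest and 98.4% of the strongest 20% of peaks had an ARF4 match, and 11.4 and 0.142% had neither an ARF4 peak nor one of the 5.

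Strong peaks of each protein that the full list of the other lacked were also counted. The full ARF4 list is longer than the ARF29 list, which by itself leaves fewer ARF29 peaks without a match, and at equal size the shares were close (59.7 and 60.5%). Of the strong ARF4 peaks, 2059 (27.4%) had no ARF29 match. Of these, 86.1% had a match in ARF34, 81.8% in ARF16 and 50.2% in ARF27, but 12.9% had one in ARF35 and 8.55% in ARF18. Of the strong ARF29 peaks, 464 (6.17%) had no ARF4 match. Here ARF27 had a match at 77.2%, ARF34 at 73.9%, ARF16 at 64.9%, ARF35 at 49.8% and ARF18 at 34.1%. All of these shares lay below those over all strong peaks. Over all strong ARF29 peaks, 61.4% had a match in ARF35 and 52.2% in ARF18, and over all strong ARF4 peaks 45.6 and 40.03%, so ARF29 was already higher there.

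Summits of shared peaks lay at fixed distances, and these did not set ARF4 and ARF29 apart from the 5. ARF4 summits coincided with ARF16 summits in 65.8% of 19486 shared peaks (65.2 to 66.5%) and with ARF18 summits in 61.6% of 5522. They were 1 bp from those of ARF34 in 63.7% and of ARF27 in 51.4%, and 3 bp from those of ARF35 in 55.3%. From ARF29 they were 4 bp away in 64.6%. ARF29 summits were 4 bp from ARF16 in 60.6%, 4 bp from ARF18 in 68.9%, 5 bp from ARF34 in 59.9%, 3 bp from ARF27 in 59.0% and 1 bp from ARF35 in 63.9%. In each of these 11 pairs the next most frequent distance held at most 2.02% of shared peaks.

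One position per list accounted for every one of these distances. With ARF4, ARF16 and ARF18 at 0, ARF34 at −1, ARF27 at 1, ARF35 at 3 and ARF29 at 4 bp, the differences matched the most frequent distance in 21 of 21 pairs, both with full lists and at equal size. The position of ARF29 was 1 bp from that of ARF35, and ARF4 had the same position as ARF16 and ARF18. Peaks were called separately in each library. These positions are offsets between called summits and are not read as likeness in binding. Shifts occurred in both directions along the chromosome in similar numbers (3805 and 3772 for ARF29 and ARF4). The sign is therefore relative, and only the differences between lists are given. Their cause was not tested.

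**Figure D5:**
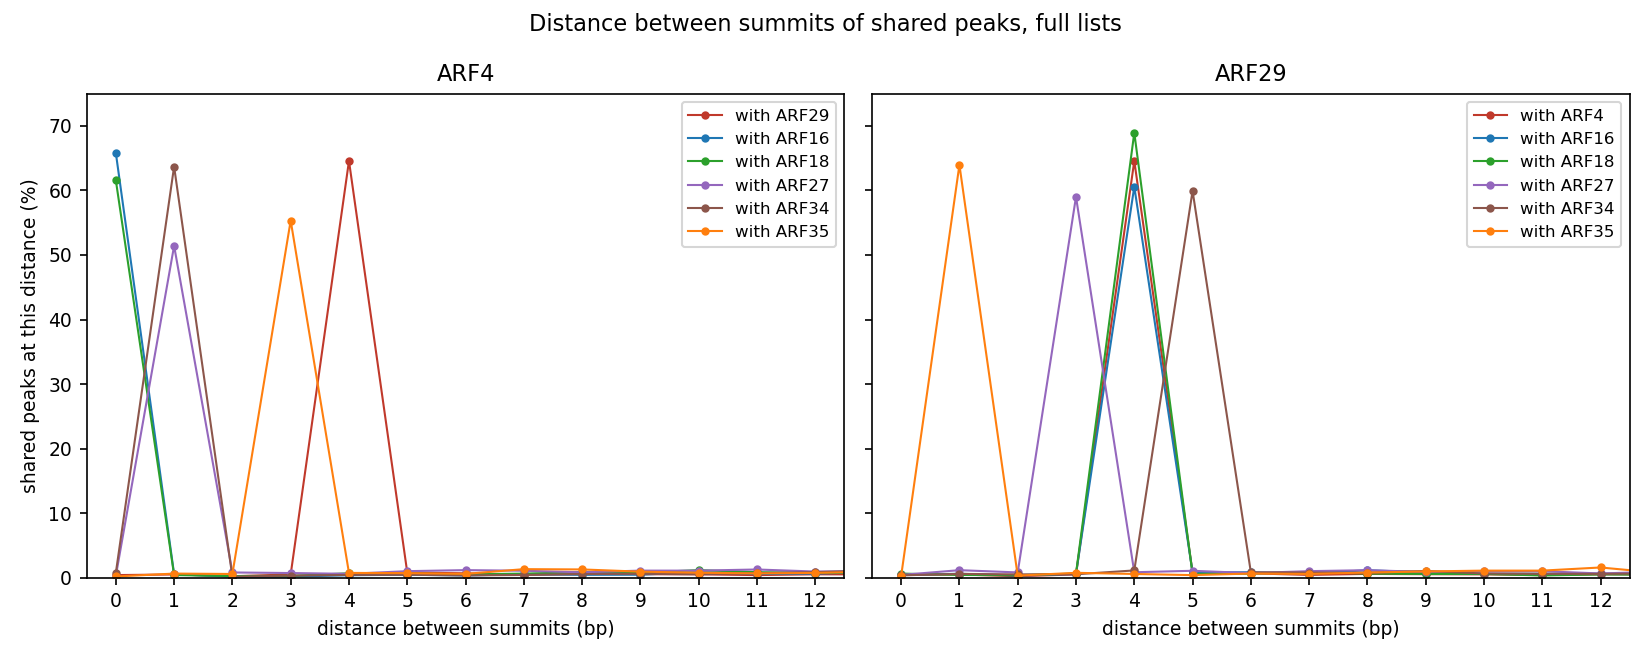
Percent of shared peaks at each distance between summits (bp), for ARF4 with 6 partners (left) and ARF29 with 6 partners (right), full lists. ARF4 peaks at 0 bp with ARF16 and ARF18 and at 4 bp with ARF29, and ARF29 peaks at 1 bp with ARF35.

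For measures outside the comparison of the 7 lists, the lists themselves were the units of an exact permutation test of 2 lists against 5. There are 21 such splits, so no p can be below 0.0476. The first measure was binding by the 7 clade B ARFs of the series (ARF10, ARF13, ARF14 and ARF39 with ARF7, ARF25 and ARF36), at equal list size. Of the strongest peaks, 29.6% in ARF4, 26.7% in ARF29, 27.1% in ARF27, 26.3% in ARF34, 25.01% in ARF16, 23.1% in ARF35 and 20.5% in ARF18 had a match in at least 1 of those lists. At this size ARF4 was the highest of the 7 lists, and ARF29 lay between ARF27 and ARF34. The mean was 28.2% for ARF4 and ARF29 and 24.4% for the 5, a difference of 3.77 points (two-sided exact permutation test, p = 0.190, Benjamini-Hochberg adjusted p = 0.381 over 2 measures). ARF4 was above each of the 5 in its share with each of the 7 lists, for example 19.97% against at most 16.9% with ARF10 and 16.4% against at most 14.2% with ARF36. ARF29 was above each of the 5 with ARF39 alone (19.9% against at most 19.2%). The order of the lists was another with full lists. There ARF35 (47.1%), ARF29 (44.2%) and ARF18 (43.7%) were above ARF4 (37.9%) in matches to at least 1 clade B list. ARF27 (37.6%), ARF16 (30.7%) and ARF34 (25.2%) were below it. ARF35, ARF29 and ARF18 are the shortest lists, and among the rest the share fell with list length. Whether list length sets this order was not tested.

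Among the site classes, matches to the other clade were most frequent where all 7 proteins bound. At least 1 of the 7 lists of the other clade had a peak at 62.4% of those sites (60.8 to 64.1%) and at 23.1% of all sites. The share was 16.6% (13.8 to 19.7%) at the 609 sites of ARF4 and ARF29 alone and 15.3% (11.7 to 19.6%) at the 321 sites of all 5 without them, which overlap. The classes differed in peak strength. Median ranks in ARF4 and ARF29 were 84.5 and 82.2 at sites of all 7, against 38.4 and 30.3 at the 609 sites. Matches to the other clade rose from 21.7% in the weakest 20% of ARF4 peaks to 62.3% in the strongest. In ARF29 they rose from 27.3 to 67.6%. Whether the classes differ at equal strength was not tested.

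The second measure was position along the chromosomes, since gene density in maize is higher toward the ends. The terminal 10% at either end of a chromosome, 20% in all, held 28.6% of the strongest summits of ARF4 and 30.6% of those of ARF29. The other lists were at 33.9% (ARF35), 33.8% (ARF27), 30.3% (ARF16), 29.5% (ARF18) and 29.2% (ARF34). ARF4 was the lowest of the 7 at equal size, and ARF29 lay within the range of the 5. With full lists ARF34 (25.1%) and ARF16 (26.3%) were below ARF4 (27.9%), and the rest were above it. The means at equal size were 29.6% and 31.4%, a difference of −1.72 points (two-sided exact permutation test, p = 0.429, adjusted p = 0.429 over 2 measures). The 609 sites of ARF4 and ARF29 alone lay in these terminal parts at a rate of 25.6% (22.3 to 29.2%), near the 25.3% of all sites. For the 321 sites of all 5 without them the rate was 32.1% (27.2 to 37.4%). This was near the 33.2% of all sites held by all 5 and the 33.1% of sites of all 7, so it was not particular to sites without ARF4 and ARF29.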

How the data were processed

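DAP-seq libraries of 7 ARFs were compared, 1 per ARF, grouped by the ARF named in the labels. The authors trimmed reads, mapped them with Bowtie2 2.2.8 to B73 RefGen version 3 without the organelle genomes, kept uniquely placed reads by mapping quality, which thins sites in repeats, and called peaks per library with GEM against the GST-HALO library. As signal the authors deposited the read depth that GEM gives a peak, unscaled between libraries. Their p-values and q-values were deposited as −log10, the latter of at least 5. The deposited display score was not used. Every peak is 201 bp wide with a central summit. The authors made a list of regions with peaks in all samples and the control and left these out of some analyses. Whether the deposited lists exclude them is not given in the sources used here. The labels state that ARF34 was reduced to 15 M and ARF27 to 20 M reads. For the other 5 the study gives a range of reads over all samples but no value per library, so their depths are unknown here.

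Matches, sites, ranks and intervals were computed with Python 3.11.15, numpy 2.4.6, scipy 1.17.1 and pandas 2.3.3. Match counts differed from bedtools 2.31.1 (at least 50% reciprocal overlap) by 0 peaks in 12 comparisons, and the matching was tested on simulated lists. For 201 bp peaks with a central summit both rules are the same, so the bedtools comparison checked the code only. Equal signals at the limit of the equal-size lists were resolved by position, which left out 0 to 38 peaks tied with the last one kept. Shares have Wilson intervals (95%), differences on the same peaks have intervals from discordant peaks, and a share given as the mean of both directions has the mean of both bounds. Fragments were amplified by PCR, so intervals cover counting error only. Named sites were the 5, 5 and 3 of highest mean rank in the classes described. ARF lists, classes and measures were chosen with earlier results of these data known. Motif counts at summits were planned but not run, since no sequence of this build was used here. Alternatives were other sharing distances, list sizes, rankings and q limits, and leaving out each of the 5 lists.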

Additional observations from a re-analysis of the deposited data

How the results depend on the processing

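The sizes of 500 and 1000 peaks, full lists for pairwise shares, and equal sizes for site counts were chosen after seeing the data. Shares are given in the order ARF4 with ARF29, mean of the 10 cross pairs and mean of the 10 pairs among the 5. They were 60.1, 48.98 and 57.5% in the equal-size lists, 60.8, 49.7 and 58.01% with summits at most 200 bp apart, and 59.6, 48.8 and 58.2% with peaks ranked by −log10 q. With summits at most 20 bp apart they were 47.1, 37.5 and 45.3%. With the smaller list as denominator they were 76.4, 72.4 and 86.9% at a −log10 q of at least 10, and 82.9, 71.9 and 85.4% for full lists. They were 43.6, 36.9 and 53.6% at 500 peaks and 46.65, 40.4 and 54.6% at 1000 peaks. At 2500 peaks the first share was 53.3% and the second 45.4%, and at 5000 peaks the first was 57.6%. In each of these settings ARF4 with ARF29 was above the mean of the cross pairs. It was above the mean of the pairs among the 5 in the equal-size lists (100, 200 and 20 bp, and by −log10 q) and below it in the other settings. The latter mean mixes pairs within and across sub-clades. Leaving out each of the 5 lists in turn gave 47.95 to 49.9% for the cross pairs and 54.6 to 59.2% for the pairs among the 5.

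Leaving out each list gave 613 to 894 sites of ARF4 and ARF29 alone and 323 to 897 sites of all remaining lists without them. At a −log10 q of at least 10 these counts were 195 and 207. That order was the reverse of the one in the full lists (609 and 321). It was also reversed without ARF18 (613 and 897) and without ARF35 (625 and 867). Totals of sites at these settings are not given here, so the counts cannot be read as shares. The difference in other-clade matches was 2.5 points at 20 bp and 4.15 points with full lists (exact permutation test, p = 0.238 and 0.619). The difference in the outer chromosomes was −1.37 points with the outer 40%, −0.176 with full lists and −1.83 at 2500 peaks (p = 0.619, 0.952 and 0.143, exact permutation test). Motif alternatives were not run. No paired analysis was possible because each ARF had 1 library.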
